A study of Mus musculus with 14 samples.

Results

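The genes described here are the autosomal genes whose RNA was high in wild-type meiotic spermatocytes of the mouse and low in the haploid spermatids that follow them. A gene was taken when its mean level in wild-type spermatocytes was at least 5 FPKM (fragments normalised to transcript length and to the mapped reads of the library) and at least 5 times its mean level in wild-type round spermatids. Of the 20626 genes in the expression tables, 19725 were autosomal, 5684 of these reached 5 FPKM in the spermatocytes, and 641 met both conditions (11.3% of the 5684). They are called shut-down genes below. The wild-type RNA values chose them, so their fall in the wild type is a description and was not tested.

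Germ cells came from the testes of adult C57BL/6J mice and were separated by fluorescence-activated sorting after staining with a Hoechst dye and propidium iodide. PD denotes pachytene and diplotene spermatocytes, RS denotes round spermatids, and either cell type was taken from WT mice and from mice labelled Setd2KO. Each of the 4 groups had 2 RNA-seq libraries of polyadenylated RNA and 1 list of H3K36me3 ChIP-seq peaks. The labels name neither the deleted part of Setd2, nor the promoter of any Cre, nor a pooling of animals, and give no animal for a library. P-values therefore weigh differences against library-to-library scatter, part of which may be technical. Depth worked back from the deposited values was 50840000 to 84930000 reads a library, so that 1 read per kilobase was worth 0.0118 to 0.0197 FPKM. For Setd2 itself the spermatocyte libraries read 21.2 and 19.1 FPKM (WT) and 21.03 and 21.4 FPKM (Setd2KO), and the spermatid libraries 5.24 and 5.58 FPKM (WT) and 12.1 and 8.67 FPKM (Setd2KO). FPKM of a whole gene cannot test for loss of some exons, so the genotype is used as labelled. The labels were checked against markers. The transition protein and protamine genes Tnp1, Tnp2, Prm1 and Prm2 had means of 926.8 to 1007 FPKM in RS WT against 36.2 to 48.1 in PD WT. The axial element gene Sycp3 went the other way, but it is a shut-down gene, so its fall was set by the rule and checks nothing. A list of 12 spermatocyte markers, 4 of them shut-down genes, summed to 2544 and 3258 FPKM in PD WT and 2517 and 2422 in RS WT. In bulk samples such as these, fewer cells of a type and less RNA per cell cannot be told apart.

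H3K36me3 is the trimethylated form of a lysine of histone H3. In mammals the methyltransferase Setd2 travels with elongating RNA polymerase II and places the mark along gene bodies, where it remains until it is erased or diluted by replication. Spermatocytes pair and recombine their chromosomes, then divide without an intervening round of DNA replication, and the spermatids that result silence much of the meiotic programme.

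Promoters of 4 of the genes the results turn on are shown first. These genes recur below and represent synapsis, the piRNA pathway and the testis histones. All 4 promoters hold a marked motif, so they do not stand for the promoters of the set, whose shares follow. Each is the 250 bases before the RefSeq start on the gene's own strand (GRCm38.p6), and capitals mark CAACTG or CAACGG, cores bound by MYB factors, or GCATGCGC, part of the site of nuclear respiratory factor 1, in either orientation. They lie at chr10:88459337-88459586 (plus strand, Sycp3), chr3:95559427-95559676 (plus strand, Hormad1, the first of its RefSeq entries), chr5:128735996-128736245 (plus strand, Piwil1) and chr13:23934157-23934406 (minus strand, Hist1h2ba).
Sycp3: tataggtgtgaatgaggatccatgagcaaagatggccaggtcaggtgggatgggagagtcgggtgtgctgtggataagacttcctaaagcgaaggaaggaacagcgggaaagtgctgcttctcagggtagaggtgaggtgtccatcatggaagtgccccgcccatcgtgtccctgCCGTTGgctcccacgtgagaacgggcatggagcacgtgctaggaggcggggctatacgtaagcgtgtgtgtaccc
Hormad1: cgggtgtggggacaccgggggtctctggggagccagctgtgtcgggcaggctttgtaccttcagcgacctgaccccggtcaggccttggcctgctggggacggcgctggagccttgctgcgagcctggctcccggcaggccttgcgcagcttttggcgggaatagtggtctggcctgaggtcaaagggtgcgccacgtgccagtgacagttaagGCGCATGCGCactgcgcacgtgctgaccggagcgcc
Piwil1: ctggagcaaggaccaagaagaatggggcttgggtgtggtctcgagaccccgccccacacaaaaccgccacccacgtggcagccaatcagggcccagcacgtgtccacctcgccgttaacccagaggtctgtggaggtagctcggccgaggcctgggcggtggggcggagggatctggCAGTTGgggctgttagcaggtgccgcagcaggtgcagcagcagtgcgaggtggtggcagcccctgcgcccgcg
Hist1h2ba: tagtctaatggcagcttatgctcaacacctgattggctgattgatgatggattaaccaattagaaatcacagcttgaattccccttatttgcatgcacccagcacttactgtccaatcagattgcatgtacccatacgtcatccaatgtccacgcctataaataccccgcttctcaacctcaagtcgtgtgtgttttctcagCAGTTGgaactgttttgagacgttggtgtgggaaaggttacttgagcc

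Sycp3 carried CAACGG, Piwil1 and Hist1h2ba carried CAACTG, and Hormad1 carried GCATGCGC as overlapping copies on opposite strands, GCGCATGCGC. Of the 641 genes, 640 had a RefSeq identifier, 526 had a promoter in the reference and 434 had exactly 1. CAACTG or CAACGG stood in 17.3% of those 434 promoters, in 16.2% of 2009 promoters of genes with steady RNA (defined below) and in 14.8% of all 22862. CAACGG alone was in 8.06%, 7.96% and 4.14%, and GCATGCGC in 8.29%, 5.87% and 2.31%. The cyclic AMP response element TGACGTCA was in 2.53%, 3.68% and 1.61%. GTTGCC, part of the X-box read by RFX factors, was in 7.14%, 13.3% and 10.5%. Base composition differs between these sets, with a median of 60.4% G plus C in the shut-down genes, 59.6% in the steady genes and 52.0% in all promoters. The shut-down genes called higher in RS Setd2KO (below) held CAACTG or CAACGG in 17.5% of 143 promoters.

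The median shut-down gene stood at 13.39 FPKM in PD WT and was 7.82 times lower in RS WT. The fold reached 83.2 in Stox1, which encodes a winged-helix protein. Low did not always mean silent, since 169 of the genes were under 1 FPKM in RS WT, 1 was under 0.1 FPKM and 87 were still at 5 FPKM or more. Just inside the 5-fold boundary were Chchd4, a factor of mitochondrial protein import, Parp1, the poly(ADP-ribose) polymerase, and Gatb, a mitochondrial aminoacyl-tRNA amidotransferase subunit, with folds of 5.0026, 5.0031 and 5.0034. Just outside were Vps41 (4.9929), Zbtb9 (4.9864) and Dnajc11 (4.9769). Shut-down genes lay on every autosome, from 7.69% of the genes at 5 FPKM on chromosome 18 to 16.8% on chromosome 13, where 32 of 190 qualified. Chromosome 13 carries the largest histone cluster. Histone genes named Hist1 to Hist4, a family chosen after its values were seen, made up 21 of the 641, from 28 such genes at 5 FPKM in PD WT. Replication-type histone messages mostly lack a poly(A) tail, and near-identical copies can share reads, so their levels here are uncertain.

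**Figure D1:**
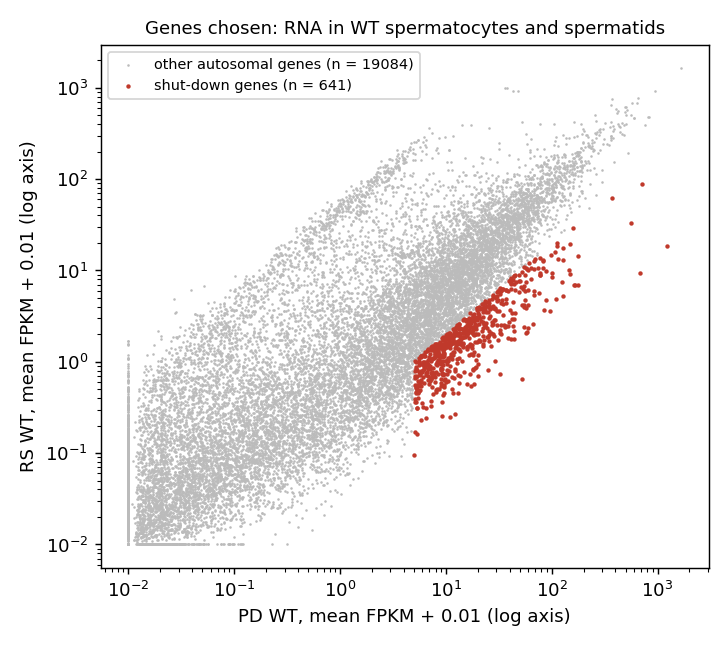
Each point is an autosomal gene, placed by its mean FPKM in PD WT (horizontal, log axis, plus 0.01) and RS WT (vertical, log axis, plus 0.01). The 641 shut-down genes, in red, fill the lower right, reaching 1241 FPKM in PD WT, and their upper edge is the 5-fold boundary of the rule.

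The levels show the fall gene by gene. The highest was Hist1h2ba (chromosome 13, 24025594 to 24026025, minus strand, mm9), which encodes the testis-specific H2B that replaces somatic H2B in meiosis. Its spermatocyte libraries read 1030.0 and 1453 FPKM (WT) and 2313 and 2341 FPKM (Setd2KO), and its spermatid libraries 15.5 and 21.8 FPKM (WT) and 25.4 and 18.5 FPKM (Setd2KO). Both spermatocyte groups lay far above both spermatid groups, and the spermatid groups overlapped. Hist1h1t (chromosome 13, 23787680 to 23788414), the linker histone H1t of spermatocytes, stood at 596 and 766, 734 and 723, 8.76 and 9.90, and 10.97 and 10.7 FPKM in the same order of groups. Slc2a3, the glucose transporter GLUT3, was the second highest with means of 714 FPKM in PD WT and 87.6 in RS WT, and Calm2, a calmodulin gene, followed Hist1h1t with 568 and 33.2. Among the 10 highest were also Sprtn, a protease of DNA-protein crosslinks, Tex101, a glycoprotein of germ cell surfaces, Piwil1, Hist3h2a and Atxn7l3b, with PD WT means of 161 to 179 FPKM and folds of 5.57 to 25.3.

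The central question was how much of the H3K36me3 cover of spermatocytes was still called in round spermatids over these genes. Of the covered bases, 83.9% were, and the median gene kept nearly all of its cover. A PD WT peak lay over 611 of the 641 genes (95.3%), and 579 of those 611 (94.8%, exact 95% binomial interval 92.7% to 96.4%) also had an RS WT peak. The median gene kept 98.55% of its PD WT covered bases (quartiles 91.2% and 100%), 469 genes (76.8%) kept at least 90% and 61 (9.98%) kept under 50%. Summed over the genes, PD WT peaks covered 14.7 megabases, RS WT peaks 13.67 megabases and both 12.34 megabases. Peaks spanned 92.1% of the median gene in PD WT and 90.6% in RS WT. Each group has 1 peak list of unknown ChIP depth, so these figures have no replicate check, and the interval covers counting error only. No label says whether the spike-in chromatin was used for scaling, and presence of a peak does not measure how much of the mark remained.

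The share was set beside genes whose RNA did not fall. Steady genes were the 3071 autosomal genes at 5 FPKM or more in PD WT with an RS WT level between 0.5 and 2 times that in PD WT. Of them 2939 (95.7%) had a PD WT peak and 93.0% of those (92.0% to 93.9%) also had an RS WT peak, with a median of 99.0% of the bases kept and 80.5% of all bases. The same figures for the shut-down genes were 94.8%, 98.55% and 83.9%. The intervals treat genes as independent although all share 1 list per group, so their overlap is not a test of the sets. Genes switched on after meiosis, chosen by the mirror image of the rule, had a PD WT peak in 365 of 1106 (33.0%) and an RS WT peak in 405 (36.6%), although their median RS WT level was 28.02 FPKM. Shut-down genes, at a median of 1.68 FPKM in RS WT, thus had an RS WT peak in 91.7% of cases. Of 5154 silent genes, under 0.1 FPKM in both WT groups, 96 (1.86%) had a PD WT peak and 90 (1.75%) an RS WT peak. Among silent genes with a PD WT peak 72.9% (62.9% to 81.5%) had an RS WT peak, with a median of 68.6% of bases kept.

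**Figure D2:**
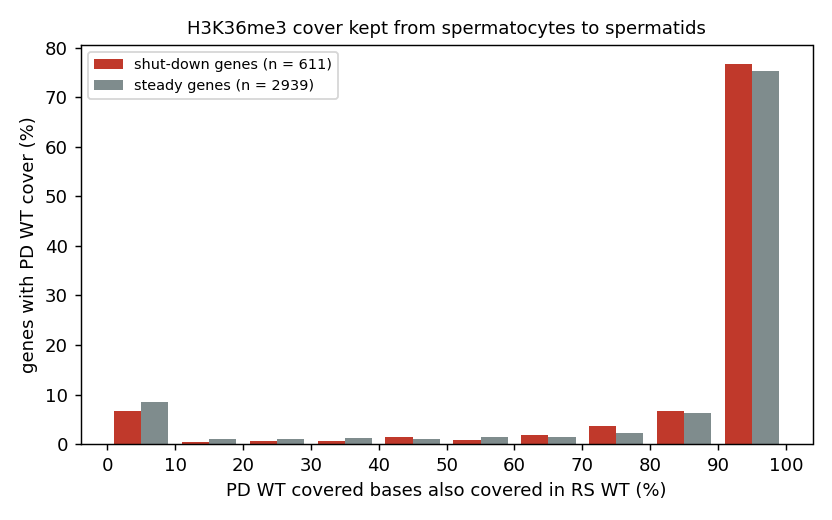
Bars give the percentage of genes with PD WT cover (vertical) by the share of those covered bases that RS WT peaks also cover (horizontal, in steps of 10 percentage points), for 611 shut-down genes in red and 2939 steady genes in grey. Both sets pile up at the right, with 76.8% and 75.3% of genes keeping at least 90%, and both have a small group at the left edge.

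The median share kept was similar across depths of the RNA fall, while the share of summed bases was higher in the genes that fell most. Genes with folds of 5 to 7, 7 to 10, 10 to 20 and at least 20 kept medians of 98.9%, 98.05%, 98.7% and 98.04% of their bases, and an RS WT peak was found in 93.2%, 93.5%, 97.3% and 100% of those with a PD WT peak (the last being 44 of 44, lower limit 91.96%). Summed over genes, 81.6%, 81.7%, 88.9% and 95.9% of bases were kept in these classes, and 11.65%, 14.1%, 5.41% and 0% of the genes kept under 50% (29, 24, 8 and 0 genes). The classes also differ in length, with medians of 21.45, 19.0, 16.34 and 15.57 kb. By length, shut-down genes under 5 kb, of 5 to 20 kb, 20 to 50 kb and 50 kb or more kept 81.3%, 92.2%, 86.2% and 79.2% of summed bases. The part of length in the trend was not tested. The 169 genes under 1 FPKM in RS WT kept a median of 97.6%, against 98.9% in the other 472. Across the 611 genes, which share both lists, Spearman's rho of the share kept was 0.05 with the fold, -0.16 with gene length and 0.17 with the PD WT level. Genes of 50 kb or more kept a median of 95.7% in the shut-down set and 95.95% in the steady set, and genes under 5 kb kept 97.5% and 99.9%. Cover could also come from a neighbour that is still transcribed. Among the 330 shut-down genes with no gene of at least 1 FPKM in RS WT within 10 kb, 308 of 319 (96.6%) had an RS WT peak, against 271 of 292 (92.8%) with such a neighbour. In the 576 genes that overlap no other gene the share was 94.7%.

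Stox1 shows the pattern at its extreme (chromosome 10, 62122170 to 62188847, minus strand). Its RNA went from 57.8 and 47.6 FPKM in WT spermatocytes to 0.531 and 0.736 FPKM in WT spermatids, and its peaks covered 68.9% of the gene in PD WT and 69.7% in RS WT, with 98.3% of the PD WT bases kept. Piwil1 (chromosome 5, 129242121 to 129261349, plus strand), whose product MIWI binds pachytene piRNAs, went from 186 and 148 FPKM to 6.33 and 7.58. It lay wholly inside 1 peak in either list, from 129235124 to 129266790 in PD WT and from 129238113 to 129264518 in RS WT. Hist1h2ba and its divergent neighbour Hist1h2aa, which encodes the testis H2A, shared 1 peak of 1376 bases with an authors' score of 76.4 in PD WT, and 1 of 4992 bases with a score of 334 in RS WT. The longest stretch belonged to Rnls, the gene of the oxidoreductase renalase (chromosome 19, 33212235 to 33466785, minus strand), with 169 kb covered in PD WT, 216 kb in RS WT and 161 kb in both. Long shared cover also lay over Dennd5b, a Rab exchange factor (109.8 kb in both lists), Uggt2, an endoplasmic reticulum folding sensor (104.9 kb), and Lcorl, a nuclear corepressor-like gene (98.7 kb). Over Mgat5, Gnao1 and Mad1l1, also among the genes with the longest PD WT cover (142 kb, 139 kb and 114 kb), 45.3%, 60.5% and 70.6% of it was kept. The interval of Gnao1 is longer in the RS tables than in the PD tables, and the PD interval was used.

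Along the gene the cover kept its shape. In 472 shut-down genes of at least 10 kb, mean PD WT cover went from 59.5% in the first of 10 bins to 80.3% in the second and 87.5% in the last. RS WT cover of the same genes went from 57.1% to 75.7% and 81.2%. In 2132 steady genes the first and last bins stood at 64.4% and 82.8% in PD WT and at 64.7% and 74.5% in RS WT. The RS WT cover was the lower one in every bin of the shut-down genes. In the steady genes it was the lower one in every bin but the first. No test was run, since each profile rests on 1 list.

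**Figure D3:**
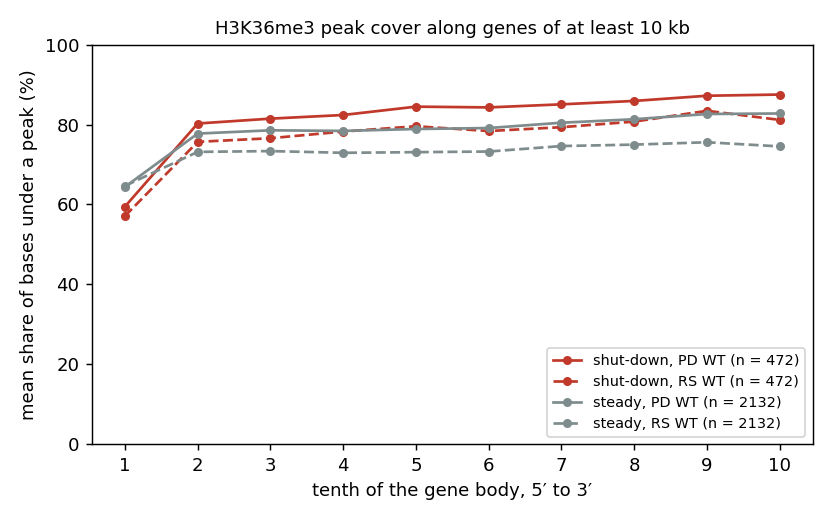
Lines give the mean percentage of bases under a peak (vertical) in each of 10 equal bins of the gene body from the 5′ to the 3′ end (horizontal), for 472 shut-down genes (red) and 2132 steady genes (grey), in PD WT (solid) and RS WT (dashed). Every line is lowest in the first bin, and the RS WT line of the shut-down genes stays between 57.1% and 83.4%.

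A minority of genes lost their cover whole. PD WT peaks lay over 32 shut-down genes (5.24% of those with cover) that had no RS WT peak, and over 207 steady genes (7.04%) of that kind. The loss was often of a full domain, since 24 of the 356 shut-down genes covered over at least 90% of their length in PD WT had none in RS WT (6.74%), as had 126 of 1586 steady genes (7.94%). Among those with the most bases were Anapc1, the largest subunit of the anaphase-promoting complex (76.2 kb), Mtr, methionine synthase (70.7 kb), Zfp638, a zinc finger gene (67.7 kb), and Cbx5, the heterochromatin protein HP1 alpha (47.6 kb). Hormad1 (chromosome 3, 95363599 to 95389720, plus strand), whose product marks unsynapsed chromosome axes, had 98.6% of its length under 4 PD WT peaks with scores of 877 to 2307 and no RS WT peak. The reverse also occurred, with 7 of the 329 shut-down genes covered over at least 90% in RS WT lacking any PD WT peak (2.13%), as did 27 of 1587 steady genes (1.70%).

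Peak width moved with the authors' score. Median scores rose from 82.8 in PD WT peaks under 2 kb to 925 in those of 10 to 20 kb and stood at 515 in those of 20 kb or more, where 7.03% scored under 100. In RS WT the same classes had medians of 79.3, 890 and 432, and 9.35% of the widest peaks scored under 100. Whether a domain that is missing from 1 list had lost the mark or had not been called cannot be told apart from these lists. Of the 30 shut-down genes with no PD WT peak, 12 were histone genes of 735 bases or less, among them Hist1h1t.

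In the Setd2KO lists the shut-down genes were nearly bare. PD Setd2KO peaks touched 2 of the 641 genes (0.312%), with 586 and 680 bases, and RS Setd2KO peaks touched 17 (2.65%), with 118 to 344 bases. They covered at most 0.642% and 0.686% of any gene. One of the first pair was a peak of 680 bases within Rnls (33335376 to 33336055). Steady genes were touched in 1.24% and 3.94% of cases.

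The second question was whether the RNA of these genes stays up in round spermatids that lack Setd2. The Setd2KO libraries had no part in choosing the genes, so the fall was tested there. Every one of them fell. All 641 genes passed the filter on low values, and all 641 were lower in RS Setd2KO than in PD Setd2KO (limma, adjusted p under 0.05), where 48.5% of the 11452 tested genes were called lower and 34.2% higher. The median log2 change was -2.36, against -0.27 over all tested genes, and the single changes ran from -6.68 to -0.74 with a highest adjusted p of 0.0106 (limma). Both RS Setd2KO libraries lay below both PD Setd2KO libraries in every one of the 641. The share of all tested genes with such a separation is not given here.

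The residual level was described in both genotypes, but the rule set a limit on that of the wild type, at least 5 times below PD WT. In Setd2KO, which the rule did not use, 149 of the 641 genes fell by less than 5 times. The rule allows no such gene in WT, so this count does not compare the genotypes. With genes chosen on the first WT libraries alone, the median RS level was 12.65% of PD in the unused WT libraries and 13.36% in Setd2KO. Chosen on the second WT libraries, it was 14.0% and 14.08%. With upper-quartile scaling the median RS level was 13.3% of the PD level in WT and 16.9% in Setd2KO. The values below are on the deposited scale. The median shut-down gene stood in RS at 12.7% and 12.9% of its PD level in the WT library pairs and at 13.9% and 12.9% in the Setd2KO pairs. Quartiles were 8.08% and 15.9% in the first WT pair, and 8.73% and 20.4% in the first Setd2KO pair. Hist1h2ba fell by 6.68 on the log2 scale in Setd2KO (SE 0.22, limma adjusted p = 4.2e-09) and Hist1h1t by 5.95 (SE 0.16, 3.9e-09). Hist1h2aa, Stox1 and Tex101 completed the 5 steepest, with changes of -5.11, -4.97 and -4.69. Stox1 stood in RS at 1.20% of its PD level in WT and at 0.852% in Setd2KO, the lowest of the 641 in either genotype. At the other end Lrrc58, Mybl1 and Tspan5, picked after their values were seen as the least reduced, stood in RS Setd2KO at 56.7%, 53.2% and 51.2% of the PD Setd2KO level.

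Against RS WT, a part of the shut-down genes was nevertheless higher in RS Setd2KO. Of the 641, 213 (33.2%) were called higher and 38 (5.93%) lower (limma, adjusted p under 0.05), where 20.9% of all tested genes were called higher and 21.8% lower. The median log2 change was 0.22, against 0.02 over all tested genes. In 401 genes both Setd2KO libraries lay above both WT libraries and in 104 both lay below. The rule chose genes that are low in RS WT, which favours the former. The same counts over all tested genes are not given here, so nothing is drawn from these 2. The differences were mostly small, with a median log2 change of 0.60 among the 213, of which 28 passed 1, and -0.46 among the 38. The median level of the 213 was 2.29 FPKM in RS WT, 4.23 in RS Setd2KO and 22.4 in PD Setd2KO, so the called genes also remained well below the spermatocyte level. Genes at 5 FPKM or more numbered 87 in RS WT and 133 in RS Setd2KO. Without the first RS Setd2KO library 112 and 19 genes were called higher and lower, without the first RS WT library 114 and 18, and without the second RS WT library 148 and 14. Without the second RS Setd2KO library the counts were 179 and 24, and 95 and 12 of the calls were made whichever of the 8 libraries was left out.

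Because RS WT had been used to pick genes that are low there, the comparison was read again in a library the choice had not used. When genes were chosen on the first PD WT and RS WT libraries alone (634 genes, 571 of them among the 641), the second RS WT library had a median of 1.75 FPKM and the RS Setd2KO libraries 2.14 and 2.03. Both Setd2KO libraries were above it in 61.7% of the genes and below it in 25.1%, against 44.6% and 43.7% of all tested genes. Chosen on the second libraries (707 genes), the shares were 66.9% and 22.1%, against 46.7% and 42.3%.

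**Figure D4:**
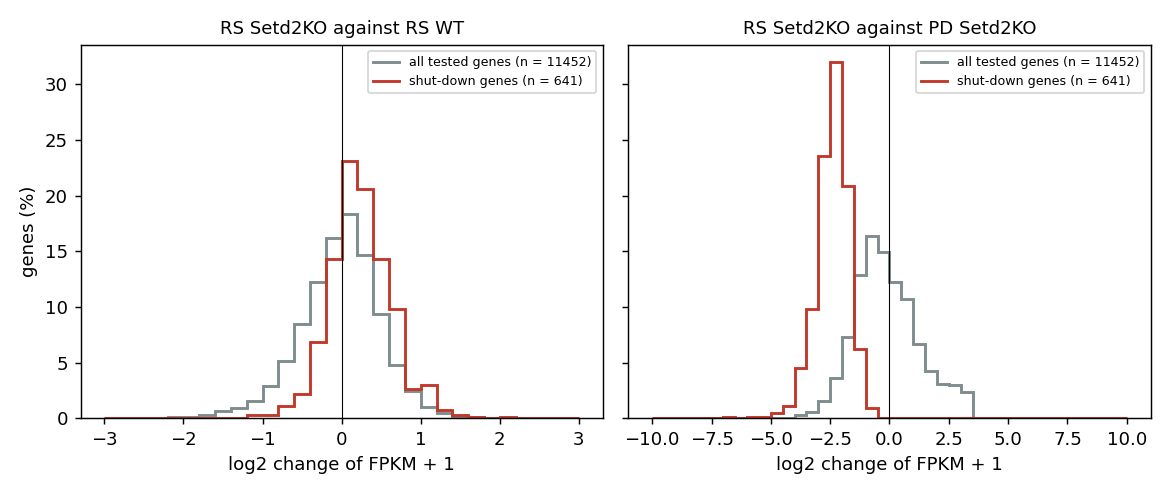
Outlines give the percentage of genes (vertical) by log2 change of FPKM + 1 (horizontal) for the 641 shut-down genes (red) and 11452 tested genes (grey). On the left, RS Setd2KO against RS WT, the red outline is shifted to the right of 0 with a median of 0.22. On the right, RS Setd2KO against PD Setd2KO, every red gene lies below 0.

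Other features differed between the RS groups, and their part in this result was not tested. The summed level of 14 round spermatid markers was 5067 and 4900 FPKM in RS WT against 1902 and 2007 in RS Setd2KO, with 8 of them called lower (6 to 8 with any single library left out) and 1 higher, a call lost without any of the RS or PD Setd2KO libraries. The 12 spermatocyte markers summed to 2517 and 2422 FPKM in RS WT against 2741 and 2714 in RS Setd2KO, with 6 called higher and none lower, and 3 called higher without the first RS WT or the first RS Setd2KO library. Among these 12 are 4 shut-down genes. The 8 peritubular myoid cell markers summed to 2.68 and 5.11 FPKM in RS WT against 18.4 and 18.65 in RS Setd2KO, and 5 of the 5 tested were called higher. The 12 Sertoli cell markers summed to 6.76 and 8.81 FPKM and to 18.1 and 15.5, and 4 of the 4 tested were called higher. Of the defining Sertoli genes, Sox9 had means of 0.0412 FPKM in RS WT and 0.137 in RS Setd2KO, and Fshr 0.0217 and 0.0631. Leydig cell markers summed to 9.79 and 5.18 FPKM in RS WT against 10.6 and 14.95 in RS Setd2KO, and macrophage, erythrocyte and endothelial markers to 4.28 and 6.69 and to 4.95 and 4.99. Among the genes with the steepest falls in Setd2KO, Stox1, Tex101 and Hist1h2ba did not pass the test against RS WT, with log2 changes of -0.27, -0.15 and 0.22 (limma, adjusted p = 0.125, 0.432 and 0.444).

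The largest rises were led by Rnls, with 3.28 and 14.4 FPKM in the RS WT libraries and 35.3 and 32.3 FPKM in those of RS Setd2KO. The groups did not overlap, but the RS WT libraries differed from each other more than in any other gene named here, and the log2 change of 2.10 had an SE of 0.44 (limma, adjusted p = 0.00302). It was 1.17 without the first RS WT library and 3.02 without the second. Pbk (chromosome 14, 66424748 to 66436659, plus strand), a serine/threonine kinase of dividing cells, went from 13.3 and 12.8 to 50.1 and 38.6 FPKM. Its log2 change was 1.68 (SE 0.18, limma adjusted p = 4.2e-05). Mybl1 (chromosome 1, 9657492 to 9690290, minus strand) encodes A-MYB, the transcription factor that switches on much of the pachytene programme. In spermatocytes it stood at 24.6 and 30.8 FPKM (WT) and 30.3 and 31.1 FPKM (Setd2KO), and in spermatids at 5.05 and 5.83 FPKM (WT) and 18.7 and 14.03 FPKM (Setd2KO). The PD groups overlapped and the RS groups did not, with a log2 change of 1.42 in RS (SE 0.16, limma adjusted p = 6.6e-05). Among the most abundant shut-down genes Slc2a3 went from 80.3 and 94.9 to 216 and 177 FPKM (log2 change 1.15, limma adjusted p = 0.000495), Calm2 from 31.2 and 35.2 to 76.4 and 61.0 (1.02, 0.000909) and Atxn7l3b from 25.7 and 32.04 to 78.5 and 61.1 (1.24, 0.000407). None of these 6 calls was lost when a single library was left out. Sprtn also rose, from 13.1 and 15.8 to 29.3 and 26.955 FPKM (0.92, limma adjusted p = 0.000823). Dennd5b and Lcorl, among the genes with the longest shared cover, went from 1.77 and 1.91 to 3.79 and 3.23 FPKM and from 1.67 and 1.63 to 4.37 and 3.45 FPKM (0.66 and 0.88).

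**Figure D5:**
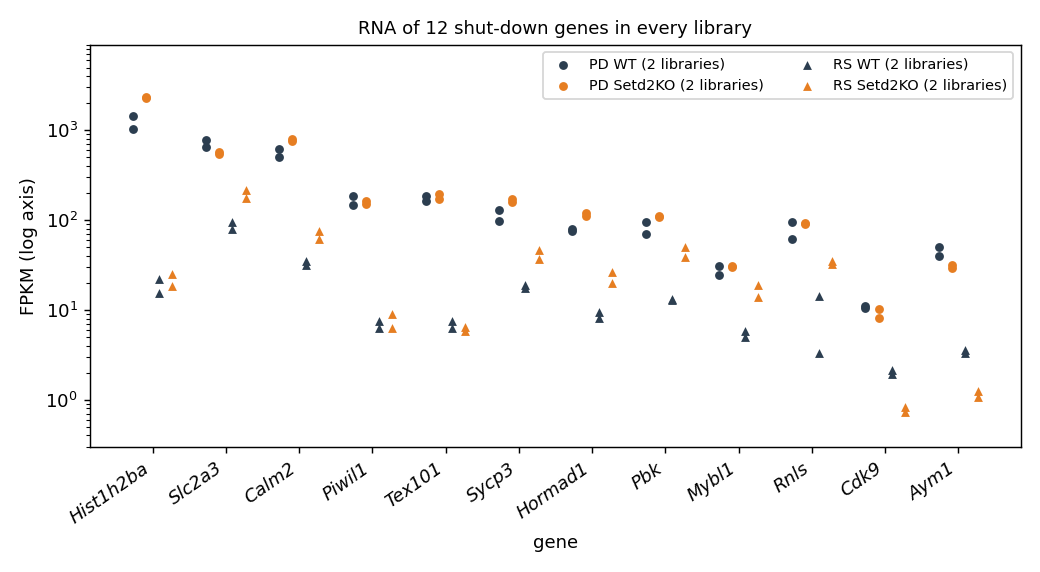
Each point is the FPKM (vertical, log axis) of 1 library for 12 shut-down genes (horizontal), with circles for PD, triangles for RS, dark for WT and orange for Setd2KO. RS libraries lie below PD libraries throughout, the orange triangles stand above the dark ones in genes such as Pbk and Mybl1 and below them in Cdk9 and Aym1, and the scatter of the dark triangles is widest in Rnls.

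The synaptonemal complex, the protein zipper between paired chromosomes, gave 5 shut-down genes from a list of 11. List counts here and below stand beside all tested genes, of which 20.9% were called higher and 21.8% lower in RS Setd2KO than in RS WT. Against PD Setd2KO 34.2% of all tested genes were called higher and 48.5% lower. Sycp3 (chromosome 10, 87922332 to 87935981, plus strand), a core of the chromosome axis, had PD levels of 97.1 and 129.6 FPKM (WT) and 157 and 173 FPKM (Setd2KO), and RS levels of 19.04 and 17.6 FPKM (WT) and 46.1 and 37.1 FPKM (Setd2KO). The RS groups did not overlap (log2 change 1.13, SE 0.17, limma adjusted p = 0.000474). Hormad1 went from 9.48 and 8.15 to 26.6 and 20.1 FPKM (1.30, SE 0.16, limma adjusted p = 9.2e-05). Sycp2, the axis partner of Sycp3, had 21.8 and 17.9 FPKM in WT spermatids and 23.4 and 22.2 in those of Setd2KO, and Tex12, of the central element, at 0.821 and 0.701 and at 0.503 and 0.614, and neither passed the test. The fifth is the gene of SIX6OS1, also of the central element. Over the 11 genes of the list 2 were called higher and 2 lower in RS Setd2KO, with a median log2 change of 0.12, and against PD Setd2KO 8 were lower and 1 higher (2 higher without either PD WT library). All 11 had PD WT cover, and 9 of them RS WT cover.

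Of 25 measured genes for meiotic recombination, 21 were tested and 5 were shut-down genes. Spata22, a partner of single-stranded DNA binding proteins, had PD levels of 10.2 and 11.8 FPKM (WT) and 16.4 and 18.7 FPKM (Setd2KO), against RS levels of 0.213 and 0.262 FPKM (WT) and 0.433 and 0.309 FPKM (Setd2KO). Mlh3, of the crossover nuclease, Hfm1, a crossover helicase, Zcwpw1, a histone reader of recombination hotspots, and Ccnb1ip1, a crossover regulator, were the others, with RS WT means of 0.0846 to 2.51 FPKM. None of the 5 passed the test in RS Setd2KO, where log2 changes ran from -0.30 to 0.31. Over the 21 genes 5 were called lower and 1 higher with a median of -0.20, where 21.8% and 20.9% of all tested genes were called. The call of the higher gene was lost without the first RS WT or the first RS Setd2KO library, and 3 were called higher without either PD WT library. All 5 were lower in RS Setd2KO than in PD Setd2KO, and all 5 kept RS WT peaks.

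Genes for the meiotic divisions, the kinetochore and the spindle checkpoint were higher in RS Setd2KO in 16 of 25 tested cases and lower in none, with a median log2 change of 0.57. With any single library left out the count was 13 to 17. The list gave 4 shut-down genes. Cdca8, which encodes the chromosomal passenger protein borealin, went from 4.403 and 5.504 to 13.1 and 11.1 FPKM (log2 change 1.14, SE 0.16, limma adjusted p = 0.000219). Cenpc1, an inner kinetochore gene, went from 2.25 and 2.26 to 3.65 and 3.798 FPKM (0.54, limma adjusted p = 0.0035). Dsn1, of the outer kinetochore, went from 3.67 and 4.08 to 6.27 and 5.65 (0.51, 0.00632), and that call was lost without the first RS WT library (limma adjusted p = 0.0644) or the first RS Setd2KO library (0.0614). Mad1l1, of the checkpoint, did not pass (1.51 and 1.61 against 1.70 and 2.15 FPKM).

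Among cyclins, CDKs and cell cycle regulators 12 of 23 tested genes were higher in RS Setd2KO and 3 lower (median log2 change 0.46), and the counts were 5 and 1 without the first RS WT or the first RS Setd2KO library and 9 and 1 without the second RS Setd2KO library. Besides Mybl1, the shut-down genes of this list were Cks2, Cdk2, Fbxo43 and Ccne2. Cdk2, a kinase required in meiotic prophase, went from 2.01 and 2.38 to 4.02 and 3.17 FPKM (0.52, limma adjusted p = 0.00999), and Fbxo43, an inhibitor of the anaphase-promoting complex, from 1.46 and 1.48 to 2.52 and 2.39 (0.48, 0.0105). Both calls were lost without the first RS WT library (limma adjusted p = 0.0956 and 0.0691) or the first RS Setd2KO library (0.109 and 0.0676), and that of Fbxo43 also without the second RS WT library (0.0558). Cks2, a CDK-binding protein, had 9.53 and 10.9 FPKM (RS WT) and 14.8 and 11.7 FPKM (RS Setd2KO) and did not pass on the deposited scale (limma adjusted p = 0.139), but passed with upper-quartile scaling (0.0492) and quantile normalization (0.0404). All 5 had RS WT peaks.

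The piRNA pathway guards germ cells against transposons and cleaves messages in spermatids. A list of 19 genes for it and for germ granules gave 8 shut-down genes, the most of any list by count. The synaptonemal complex list gave 5 from 11. Among the 8 is Tex101, the glycoprotein of germ cell surfaces named above. Piwil1 stood at 9.08 and 6.35 FPKM in RS Setd2KO, overlapping its RS WT values, and Piwil2, of the MILI protein, at 7.30 and 5.77 against 5.77 and 6.11 in RS WT. Tdrd1, a scaffold of germ granules, went from 4.69 and 4.89 to 6.29 and 6.397 FPKM (0.34, limma adjusted p = 0.0483), a call lost without any 1 of the 4 RS libraries (limma adjusted p = 0.125 to 0.195). Tdrd5 and Tdrd12, named after their values were seen, were the other members of the list called higher, with log2 changes of 0.63 and 0.76. Over the 18 tested genes 6 were called higher and none lower in RS Setd2KO (3 higher without the first RS WT library), and 14 were lower and 1 higher than in PD Setd2KO. Of the 7 shut-down genes of the list with a PD WT peak 6 had an RS WT peak.

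The other lists held at most 1 shut-down gene. Dazl, an RNA-binding protein of early germ cells, was the member from 14 measured genes of spermatogonia and meiotic entry. Spermatocytes had 18.2 and 19.5 FPKM (WT) and 30.2 and 36.004 FPKM (Setd2KO) of it, and spermatids 2.60 and 2.52 FPKM (WT) and 1.37 and 1.26 FPKM (Setd2KO). It was higher in PD Setd2KO (log2 change 0.78, limma adjusted p = 0.0012) and lower in RS Setd2KO (-0.62, 0.00243), with no overlap of groups in either cell type. The spermatogonial list summed to 26.9 and 28.7 FPKM in PD WT and 46.2 and 58.6 in PD Setd2KO. Dazl itself makes up most of each of these sums, so they largely repeat its values. The part of the list's other genes in that rise was not tested. No shut-down gene came from 14 measured cohesin and shugoshin genes, from 27 measured H3K36 methylation writers, erasers and readers, or from the round spermatid and somatic markers.

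Of the 38 genes lower in RS Setd2KO than in RS WT, 11 were also lower in PD Setd2KO than in PD WT, where 6.3% of all tested genes were. A more negative effect in RS than in PD was called in 12, where 27.3% of all tested genes were called. The RS effect is a term of that difference. Aym1, named for activating meiotic promoters in yeast, went from 3.57 and 3.28 FPKM in WT spermatids to 1.24 and 1.06 in Setd2KO spermatids (log2 change -1.04, SE 0.14, limma adjusted p = 0.000181). Spdye4b, of the Speedy family of CDK activators, went from 4.098 and 4.10 to 1.73 and 1.37 (-1.01, 0.000224). Mapk15, an atypical MAP kinase, Lemd2, an inner nuclear membrane protein, and Cdk9, the kinase that releases paused RNA polymerase II, had changes of -0.90, -0.83 and -0.77. In each of the 5 both Setd2KO libraries lay below both WT libraries. RS WT cover was found over 36 of the 37 lower genes with PD WT cover, with a median of 96.85% of bases kept, against 197 of 208 and 99.02% for the 213 higher genes and 346 of 366 and 98.4% for the genes not called. Summed over genes the kept bases were 71.5%, 87.99% and 82.6%, and 16.2%, 7.21% and 10.9% of the genes kept under 50%. No test was run on these differences, and the smallest set rests on 37 genes.

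Genotypes were also compared in spermatocytes. The rule used the PD WT values that enter here, so the counts are a description and the comparison with all genes is not read further. In PD Setd2KO 167 (26.1%) were called higher and 44 (6.86%) lower than in PD WT, where 29.8% and 6.3% of all tested genes were called (limma). The median log2 change was 0.19 over the 641 and 0.19 over all tested genes, and with upper-quartile scaling, which moved the latter to 0.04, the split turned to 63 higher and 116 lower, and with quantile normalization to 107 and 95. The first PD WT library had a summed level of 181900 FPKM, and the remaining libraries summed to 219300 to 234800. Without it 99 genes were called higher and 51 lower, without the second PD WT library 234 and 41, and without the first and second PD Setd2KO libraries 110 and 15, and 65 and 30. The summed round spermatid markers were 376.9 and 408.4 FPKM in PD WT and 399.4 and 320.0 in PD Setd2KO.

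The 5 largest called rises in PD Setd2KO against PD WT were all in histone genes. The counts that follow are for members named Hist1 to Hist4, a family chosen after its values were seen. Over all tested genes the shares in this contrast were 29.8% higher and 6.3% lower (limma). PD WT values helped to choose the members, so their counts are not weighed against these shares. Missing poly(A) tails and shared reads also leave the histone levels uncertain, as stated above. Of the 21 histone members 11 were called higher and 1 lower in PD Setd2KO, with a median log2 change of 0.65, and the counts were 8 and 1 with upper-quartile scaling, 10 and 1 with quantile normalization, 6 and 2 without the first PD WT library, and 17 and 0 without the second. H2afx, which encodes the histone variant phosphorylated at DNA breaks, stood at 51.4 and 84.5 FPKM in PD WT and 142 and 141 in PD Setd2KO (log2 change 1.09, SE 0.22, limma adjusted p = 0.00333). It also rose in RS, from 4.76 and 5.92 to 13.7 and 10.6 (1.05, 0.00271). Hist1h4n, Hist1h2bj, Hist1h4d and Hist1h4h had PD changes of 1.21, 1.10, 1.05 and 1.00, Hist1h2ba of 0.93 (0.00895) and Hist1h2aa of 0.75 (0.00256). The calls of Hist1h2ba and Hist1h4d were lost without the first PD WT library (limma adjusted p = 0.0587 and 0.0594). Without that library the change of Hist1h4h was 0.66. In RS Setd2KO 4 of the 21 were called higher and none lower, and none was called higher without the first RS WT or the first RS Setd2KO library, none with no filter on low values, 1 without the second RS WT and 2 without the second RS Setd2KO library. Over all tested genes 20.9% were called higher and 21.8% lower in RS Setd2KO than in RS WT. All 21 histone members were lower in RS Setd2KO than in PD Setd2KO.

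The genes lowest in PD Setd2KO relative to PD WT were Papln, an extracellular matrix gene, Dcdc2b, a doublecortin-domain gene, Zfp661, Lat2, an adaptor of immune receptor signalling, and Iqcc, with log2 changes of -0.97, -0.92, -0.92, -0.92 and -0.75 (limma adjusted p of 0.000279 to 0.00115). Papln went from 5.85 and 6.03 to 2.23 and 2.89 FPKM in PD against 0.825 and 0.694 FPKM in WT spermatids and 0.948 and 0.795 FPKM in Setd2KO spermatids. Its PD groups did not overlap and its RS groups stood close together. When the effect of Setd2KO in spermatids was set against its effect in spermatocytes, 94 shut-down genes were called for a more positive effect in RS (14.7%) and 63 for a more negative one (9.83%), where 7.76% and 27.3% of all tested genes were called (limma). PD WT and RS WT, the values of the rule, both enter this difference, with signs by which the choice favours positive values, and no library outside the choice was read, so nothing is drawn from the shares. The counts were 217 and 22 with upper-quartile scaling and 180 and 48 with quantile normalization. Without single libraries they were 48 to 135 and 27 to 90, the lowest without the first RS Setd2KO library for the former and without the second PD Setd2KO or second RS WT library for the latter. Of the 213 genes higher in RS Setd2KO, 62 were also higher in PD Setd2KO, where 29.8% of all tested genes were called higher. The 213 included 77 of the 94, but the RS effect is a term of the difference, so that overlap is no separate result.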

How the data were processed

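Polyadenylated RNA of 8 libraries and H3K36me3 chromatin of 4 groups had been sequenced. The authors deposited FPKM per gene for each library, made with CASAVA, TopHat2, Cufflinks and Cuffdiff on mm9, per the submitters' processing notes, with no version. The deposited peak lists give a score per peak (CASAVA, Bowtie and bedtools in those notes, peak names that begin with MACS, and 1 list per group). The input lists were not analysed here.

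Peaks were intersected with gene intervals. A base counted as kept when a PD WT and an RS WT peak both covered it. RNA was tested as log2(FPKM + 1), a scale that understates the change of low genes, with limma 3.58.1 (R 4.3.3) in 1 model of 4 groups. Genes with a group mean of at least 1 FPKM entered, p-values were adjusted by the Benjamini-Hochberg method over all genes tested, and the threshold was 0.05. The code was tested on simulated data. Peak and table work used Python 3.11.15, pandas 2.3.3, NumPy 2.4.6 and SciPy 1.17.1. Depth was recovered from low FPKM values of intronless genes, and count intervals are exact binomial, covering counting error only.

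Genes, lists and tests were chosen with earlier results of these data known. The named genes are the 10 highest in PD WT, the 5 with the most PD WT cover, shared cover, or PD WT cover without RS WT cover, the 5 with the largest called changes in each direction of each contrast, list members with the highest PD WT levels, and the 3 on either side of the 5-fold boundary. Genes known by a clone number alone and some further genes are not reported here. Alternatives changed the pseudocount, scaling, filter, rule, replicate block and single libraries. The replicate numbers did not mark shared animals or days in the labels.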

Additional observations from a re-analysis of the deposited data

Results flagged for a closer look

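The effects of Setd2KO in round spermatids and in spermatocytes were set against each other by limma's test of their difference. It called 94 shut-down genes in the positive direction and 63 in the negative direction (14.7% and 9.83%, against 7.76% and 27.3% of all tested genes). The PD WT and RS WT values that chose the genes enter this difference, with signs by which the choice favours positive values. Nothing is therefore drawn from the shares, and the positive values of single genes below carry the same bias. Upper-quartile scaling gave 217 and 22 genes, and leaving out single libraries 48 to 135 and 27 to 90. The values here are the log2 change in RS minus that in PD. Positive differences were 1.84 in Rnls, 1.497 in Slc2a3, 1.27 in Mybl1, 1.26 in Pbk, 1.10 in Atxn7l3b, 0.96 in Cdca8 and 0.76 in Sprtn. That of Rnls was 0.91 without the first RS WT library and 2.76 without the second. They were 0.74 in Hormad1, 0.74 in Fbxo43, 0.70 in Dsn1, 0.68 in Parp1, 0.60 in Lcorl and 0.56 in Cdk2. Lat2, Papln and Zfp661, which were lower in PD Setd2KO than in PD WT, had differences of 1.21, 1.06 and 0.92. The unnamed loci 4933412E24Rik and D030056L22Rik had 1.16 and 1.30. Negative differences were -1.40 in Dazl, -1.20 in Hist1h4n, -0.83 in Spdye4b, -0.70 in Mgat5, -0.69 in Hist1h2aa, -0.63 in Hfm1, -0.56 in Cdk9 and -0.48 in Spata22. The differences of Mybl1, Pbk, Slc2a3, Dazl and Spdye4b passed the threshold in each of the 13 alternatives run, while that of Rnls was lost in 8, that of Cdk9 in 7 and that of Hormad1 in 4. Beside these values, the summed round spermatid markers were 5067 and 4900 FPKM in RS WT, 1902 and 2007 in RS Setd2KO, 376.9 and 408.4 in PD WT, and 399.4 and 320.0 in PD Setd2KO, and their part was not tested.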

How the results depend on the processing

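The fall from PD Setd2KO to RS Setd2KO kept all 641 genes with every pseudocount, scaling, filter, block and left-out library run. The RS Setd2KO against RS WT counts were 112 to 263 higher and 14 to 41 lower with single libraries left out (the lone library of a group was then assumed to vary like the other groups), and 207 to 276 and 31 to 53 with another pseudocount, scaling or filter. In PD, leaving out libraries gave 65 to 234 higher and 15 to 51 lower genes, upper-quartile scaling 63 and 116, and quantile normalization 107 and 95. For the difference between effects, leaving out libraries gave 48 to 135 positive and 27 to 90 negative genes, upper-quartile scaling 217 and 22, and quantile normalization 180 positive.

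With a rule of 10 FPKM and 10-fold, 100% of genes with PD WT cover also had RS WT cover, the median share kept was 99.55%, and the RS level was 6.82% of the PD level in WT and 7.27% in Setd2KO. Without a gene of 1 FPKM in RS WT within 10 kb the share was 96.55%. The RS level was 13.3% of PD (WT) and 16.9% (Setd2KO) with upper-quartile scaling. For genes chosen on the first or second libraries alone it was 12.65% and 14.0% in WT, and 13.36% and 14.08% in Setd2KO. The cause of these shifts was not tested, apart from the stricter rules, which by construction keep fewer genes.

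Replicate numbers did not pair the libraries, since the deviations of same-numbered libraries correlated from -0.309 to 0.068. With the replicate number as a block the calls were 209 higher and 36 lower in RS, 157 and 40 in PD, and 86 and 53 for the difference, and Tdrd1 lost its RS call (limma adjusted p = 0.0565).

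With 2 libraries a group, 1 peak list a group and no ChIP depth, small changes of low genes and any change in the amount of H3K36me3 under a peak were not detectable.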
